A study of Mus musculus with 30 samples.

Results

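The proteasome genes of the mouse were followed through 24 h of fasting in epididymal white adipose tissue (WAT), the fat pad beside the testis, in liver (LIV) and in thigh skeletal muscle (SM). The genes were chosen by their symbol: all measured genes named Psma, Psmb, Psmc or Psmd with a number, without Psmb8, Psmb9 and Psmb10, each read on 1 probe set, the brightest on average of those that name no other gene. This gave 35 of 18781 genes. Of these, 15 encode the core particle (7 Psma and 8 Psmb genes) and 20 carry names of the regulatory particle (6 Psmc and 14 Psmd genes). Psma4 was covered only by a probe set shared with a second gene and is therefore not among the 35.

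The proteasome is the large protease of the cytosol and nucleus that degrades proteins marked with ubiquitin chains. Its core particle is a barrel of stacked rings, with alpha subunits (Psma) at the ends forming the gate and beta subunits (Psmb) inside, of which Psmb5, Psmb6 and Psmb7 cut the chain. The regulatory particle caps the barrel: a base with a ring of ATPases (Psmc) unfolds and feeds the substrate, whereas a lid of Psmd subunits holds the enzyme that removes ubiquitin. In skeletal muscle the ubiquitin and proteasome system is known for the breakdown of myofibrillar protein when food or activity is lacking, a state in which the ubiquitin ligases Trim63 and Fbxo32 rise.

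Male C57Bl/6 mice (C57Bl/6 J in the methods) of 10 to 12 weeks were studied, 5 per group, all on chow and otherwise untreated: the fasted mice had food withdrawn for 24 h from the beginning of the light phase, whereas the fed mice ate ad libitum. RNA of whole WAT, LIV and SM pieces was hybridised to Affymetrix mouse gene arrays, 1 array per mouse and tissue, which gave 30 arrays in 6 groups. The labels do not say whether equal numbers in different tissues mark the same mouse, or in different diets the same cage. Levels are the log2 values of the authors' robust multi-array average (RMA), and every change is fasted minus fed on this log2 scale, where a change of 1 is 2-fold. Calls required 1.3-fold or more (0.379 on the log2 scale) together with an adjusted p under 0.05, from limma's moderated test and Benjamini-Hochberg adjustment over all 28815 probe sets. All adjusted p below come from this fit. Levels are compared between groups for 1 gene at a time, never between genes. In whole tissue, fewer cells of a type and less RNA per cell cannot be told apart, and quantile normalization hides a change of total mRNA.

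The arrays fed LIV 4 and fasted SM 5 were left out, so that 28 arrays were used, with 4 or 5 in a group. Over all probe sets, the correlation with the rest of the group (mean Pearson r) was 0.980 for fasted SM 5 and 0.987 for fed LIV 4, and 0.991 to 0.996 for the arrays used. The mean of 8 lymphocyte markers was 7.81 on fasted SM 5 and 3.82 to 4.06 on the SM arrays used. Tissue markers fitted the labels: the mean of 9 muscle fibre markers was 12.6 to 12.7 on the SM arrays used and at most 5.55 in WAT and LIV, the mean of 7 hepatocyte markers was at least 12.5 in LIV and at most 5.34 elsewhere, and the mean of 8 adipocyte markers was 11.6 to 12.2 in WAT. The thigh SM pieces were not pure muscle, as their adipocyte mean ranged from 7.77 to 9.73 in the fed and from 7.76 to 8.65 in the fasted arrays, against 4.95 to 5.44 in LIV.

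Fasting raised proteasome genes in SM and lowered part of them in WAT. In SM, 10 of the 35 genes were called up and 0 down, or 28.6%, where 7.8% of all genes were called up and 5.78% down. The 10 were Psmd11, Psmc2, Psmd4, Psma5, Psma1, Psmc6, Psmd8, Psmd12, Psmd3 and Psmc4, with changes between 0.40 and 0.79. In WAT, 5 were called down (Psmd14, Psmb3, Psma1, Psmd6 and Psmd10) and 0 up, or 14.3% down, where 7.75% of all genes were called down and 7.99% up. In LIV, 2 were called up (Psmd9 and Psma7) and 0 down, or 5.71% up, a share close to the 3.54% of all genes called up there, beside 4.01% called down. By limma's unadjusted p under 0.05, 24 genes were up and 0 down in SM, 6 up and 14 down in WAT, and 17 up and 2 down in LIV. The share of all genes at this unadjusted p was not counted, so these counts have no background beside them.

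**Figure D1:**
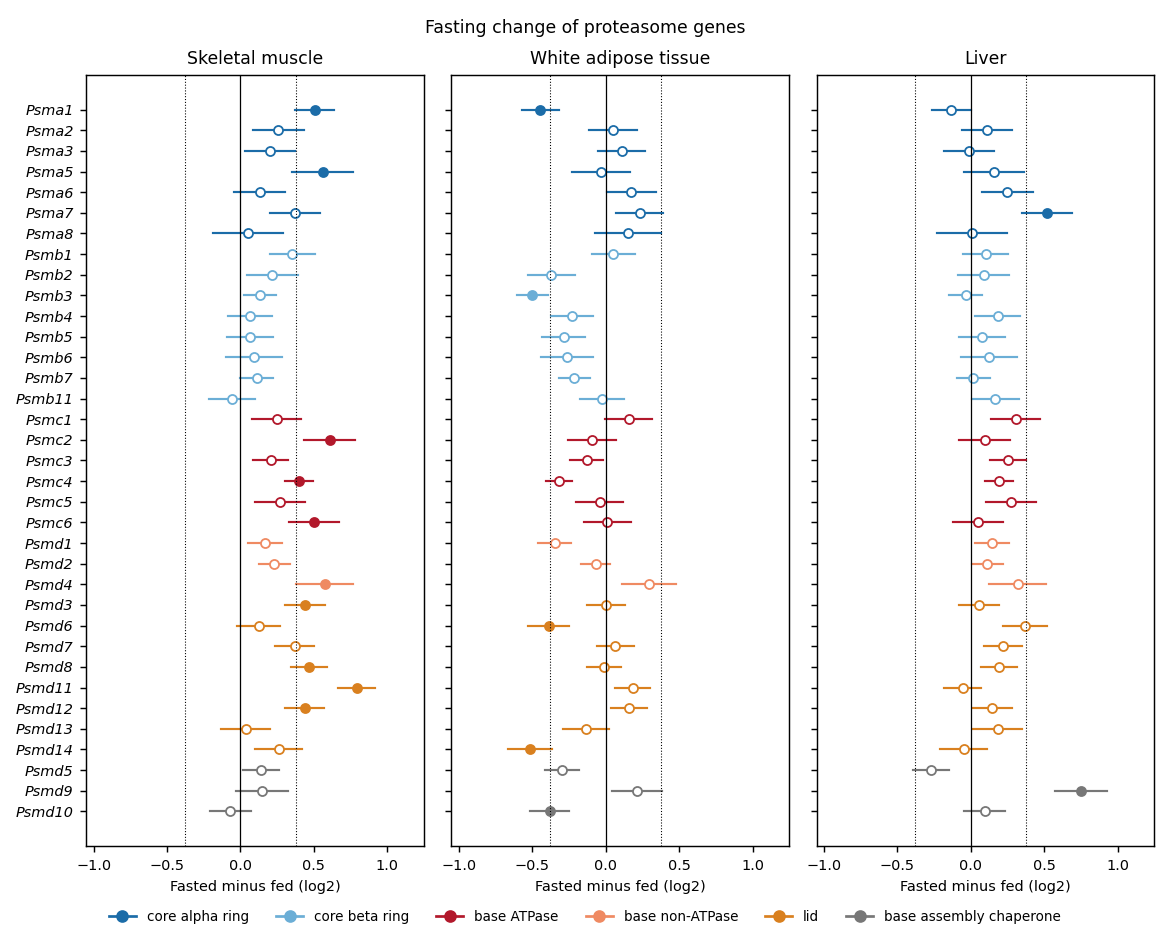
Fasting change of the 35 proteasome genes (rows, grouped by role) in SM, WAT and LIV on the log2 scale (x axis). Points are changes, bars their 95% confidence intervals, filled points were called at an adjusted p under 0.05 and at least 1.3-fold, and dotted lines mark 1.3-fold. In SM 33 of 35 points lie above 0, in WAT 14 and in LIV 29.

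Without a minimum fold, 20 of the 35 genes passed the adjusted p in SM, each of them upward, where 14.4% of all genes were up by this rule. In WAT, 13 passed downward and 3 upward, where 14.6% and 16.3% of all genes did so. In LIV, 10 passed upward and 1 downward, where 8.55% and 6.91% of all genes did so. The median change of the 35 genes was 0.23 in SM, -0.04 in WAT and 0.12 in LIV, beside -0.00404 (SM), 0.00526 (WAT) and 0.0317 (LIV) over all genes. In SM, the fasted arrays lay above every fed array for 17 members, where 12.5% of all genes did so. In WAT, the fasted arrays lay below every fed array for 10 members, against 10.1% of all genes. In LIV, 11 members were separated upward and 2 downward, where 9.92% and 7.41% of all genes were.

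The regulatory particle held most of the genes that rose in SM. Of the 20 regulatory genes, 8 were called up (40%) and 15 passed the adjusted p at any fold. Of the 15 core genes, 2 were called up (13.3%) and 5 passed the adjusted p. The median change was 0.26 for the regulatory and 0.13 for the core genes. Within the core it was 0.26 for the 7 alpha genes, like that of the regulatory genes, and 0.10 for the 8 beta genes. Psmd5, Psmd9 and Psmd10 are known as chaperones that help to build the base and leave the finished particle, and none of these 3 was called in SM. Psma8, a subunit of the testis, and Psmb11, a subunit of the thymus, had group means between 3.32 and 4.08 in all 6 groups and were called in none of the tissues. Without these 5 genes, 8 of 17 regulatory and 2 of 13 core genes were called up in SM, with medians of 0.37 and 0.20. No test was made of the difference between the particles, because the genes share their arrays.

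Of the 8 lid genes, 4 were called up in SM, and of the 6 ATPase genes 3. Psmd11, a lid subunit known to limit assembly of the whole proteasome and to be raised by Foxo4 in stem cells, changed most of the 35 genes. Its level was 9.99, 9.88, 9.82, 9.92 and 9.90 on the fed and 10.60, 10.70, 10.72 and 10.76 on the fasted SM arrays. Fasted SM lay above fed SM on every array, by 1.73-fold (0.79 ± 0.06 (SE), adjusted p = 1.54e-10). In WAT the same gene went from 8.89 ± 0.11 to 9.08 ± 0.10 (SD, n = 5 and 5), a change of 0.19 below the minimum fold (adjusted p = 0.0163), with overlapping arrays. In LIV it was 10.12 ± 0.07 fed (SD, n = 4) and 10.06 ± 0.07 fasted (SD, n = 5; adjusted p = 0.645).

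Psmd8, Psmd12 and Psmd3, scaffold subunits of the lid, rose in SM by like amounts. Psmd8 read 10.32, 10.39, 10.30, 10.35 and 10.32 in fed and 10.81, 10.82, 10.77 and 10.81 in fasted SM, a rise of 0.47 ± 0.06 (SE, adjusted p = 1.09e-06). For Psmd12, the fed SM arrays were at 10.04, 9.87, 10.01, 9.93 and 9.90 and the fasted at 10.23, 10.38, 10.47 and 10.48, a rise of 0.44 ± 0.06 (SE, adjusted p = 8.2e-06). The values of Psmd3 were 8.92, 9.13, 9.00, 9.06 and 9.03 in fed and 9.47, 9.49, 9.45 and 9.45 in fasted SM (0.44 ± 0.07, SE, adjusted p = 1.27e-05). Fed and fasted SM did not overlap for any of the 3 genes, and the fasted arrays of Psmd8 and of Psmd3 lay close together. In WAT and LIV their changes ranged from -0.01 to 0.19 and none was called.

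The other 4 lid genes were not called in SM. Psmd7, partner of the deubiquitinase, stood just below the minimum fold there (0.37, 1.29-fold, adjusted p = 7.86e-05), and Psmd14, the deubiquitinase itself, passed the adjusted p with a change of 0.26 (adjusted p = 0.0165). Psmd6 (0.12, adjusted p = 0.257) and Psmd13 (0.04, adjusted p = 0.828) did not pass.

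All 6 ATPases of the base passed the adjusted p in SM, with changes from 0.20 to 0.61, and 3 were called. Psmc2 had the largest of these changes, with levels of 8.60, 8.76, 8.62, 8.78 and 8.55 in fed and 9.29, 9.18, 9.25 and 9.36 in fasted SM (1.52-fold, 0.61 ± 0.08, SE, adjusted p = 3.37e-06). Psmc6 read 9.68, 9.50, 9.57, 9.54 and 9.56 in fed and 9.91, 10.07, 10.17 and 10.15 in fasted SM (0.50 ± 0.08, SE, adjusted p = 3.53e-05). Psmc4 was at 9.34, 9.44, 9.34, 9.41 and 9.41 in fed and at 9.70, 9.77, 9.85 and 9.84 in fasted SM (0.40 ± 0.05, SE, adjusted p = 2.68e-07). None of the 3 overlapped between diets in SM. Psmc4 stood just above the minimum fold (1.32-fold), and its change was 0.37 with all 30 arrays, which ended the call. Psmc1, Psmc3 and Psmc5 changed by 0.25, 0.20 and 0.27.

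Among the base subunits without ATPase activity, Psmd4, a receptor for ubiquitin chains, rose in SM. It read 9.23, 9.27, 9.10, 9.24 and 9.15 in fed and 9.76, 9.76, 9.81 and 9.76 in fasted SM, a rise of 1.49-fold (0.57 ± 0.09, SE, adjusted p = 4.02e-05). Psmd4 passed the adjusted p with positive changes below the minimum fold also in WAT (0.30, adjusted p = 0.0128) and LIV (0.32, adjusted p = 0.024). The 2 large scaffolds of the base, Psmd1 and Psmd2, changed in SM by 0.17 and 0.23 (adjusted p = 0.0302 and 0.00133), with every fasted array above every fed one.

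In the core, the rise in SM was seen in the alpha ring. Psma5 was at 8.45, 8.53, 8.52, 8.43 and 8.23 in fed and at 8.83, 8.94, 9.15 and 9.04 in fasted SM (1.47-fold, 0.56 ± 0.10, SE, adjusted p = 0.000116), and its second probe set was called up as well (0.52, adjusted p = 0.00135). Psma1 went from 9.88, 9.82, 9.81, 9.87 and 9.86 to 10.17, 10.43, 10.38 and 10.44 (1.42-fold, 0.51 ± 0.06, SE, adjusted p = 9.67e-07). Both had every fasted array above every fed array. Psma7 stood just below the minimum fold (0.37, 1.29-fold, adjusted p = 0.00143), and the other alpha genes changed by 0.05 to 0.26. The shared probe set of Psma4 and a second gene was called up in SM (0.50, adjusted p = 1.95e-07), but the gene that gave the signal cannot be told.

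None of the 8 beta genes was called in SM. Psmb1 alone passed the adjusted p (0.35, 1.28-fold, adjusted p = 0.000757), with all fasted arrays (9.60 to 9.74) above all fed arrays (9.24 to 9.40). The catalytic subunits, which cut the substrate, showed little difference. Psmb5, the chymotrypsin-like subunit, was at 11.14, 11.18, 11.24, 11.19 and 11.25 in fed and 11.23, 11.17, 11.31 and 11.33 in fasted SM (0.07, 95% confidence interval -0.09 to 0.22, adjusted p = 0.621). Psmb6, the caspase-like subunit, read 9.59, 9.98, 9.76, 9.87 and 9.90 against 10.07, 9.84, 9.91 and 9.82 (0.09, interval -0.10 to 0.28, adjusted p = 0.559). Psmb7, the trypsin-like subunit, read 10.27, 10.16, 10.21, 10.18 and 10.28 against 10.22, 10.23, 10.40 and 10.47 (0.11, interval -0.00 to 0.22, adjusted p = 0.164). Fed and fasted SM overlapped for all 3, and the upper bounds of the intervals lay below 1.3-fold.

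**Figure D2:**
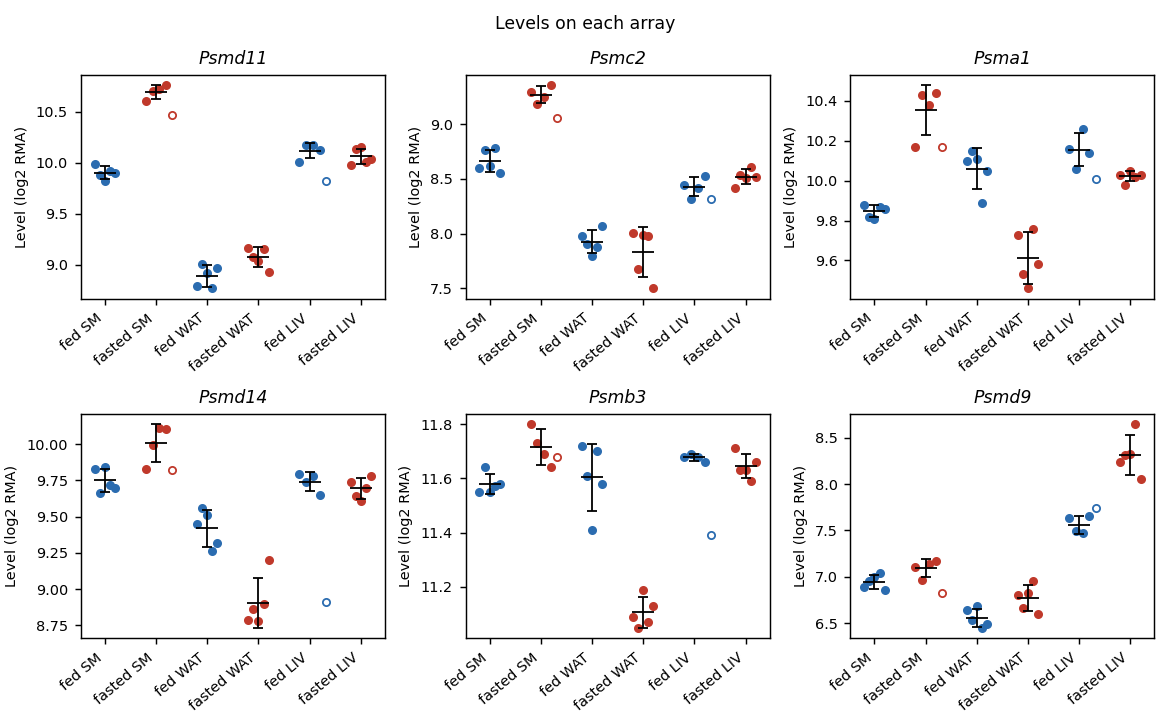
Level (log2 RMA, y axis) of Psmd11, Psmc2, Psma1, Psmd14, Psmb3 and Psmd9 on every array in the 6 groups (x axis), fed in blue and fasted in red, with mean and SD of the arrays used; open circles are the arrays left out. Fasted SM lies above fed SM for Psmd11, Psmc2 and Psma1, fasted WAT below fed WAT for Psma1, Psmd14 and Psmb3, and fasted LIV above fed LIV for Psmd9.

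The array left out of SM lay above all fed SM arrays for each of the 10 called genes, mostly nearer to them than the fasted arrays used. On fasted SM 5, Psmd11 was at 10.47, Psmc2 at 9.06, Psma1 at 10.17 and Psmd4 at 9.54. With all 30 arrays, 9 members were called up in SM, with changes of 0.75 (Psmd11), 0.57 (Psmc2) and 0.39 (Psmd3). The study's text names fasted SM 1 in place of fasted SM 5 as left out. With that set 9 members were called up, and Psmd3 (0.37) was not. The mean of 7 slow fibre markers differed widely among SM arrays, from 5.39 to 10.2 in fed and from 8.34 to 9.86 in fasted SM, with 0 of 7 markers called. Of the adipocyte markers, 3 of 8 were called down in SM. With the slow fibre mean as a covariate in the SM arrays alone, 10 members were called up, and with the adipocyte mean 9. Of the macrophage markers, 2 of 7 were called up in SM, where 7.8% of all genes were, and the median change of the 7 was 0.055. On the arrays used, 0 of 8 lymphocyte markers were called. The part of macrophage and lymphocyte markers in the result was not tested.

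Averaged over genes and set relative to the mean of the fed arrays, the 20 regulatory genes stood at 0.317 ± 0.0557 (SD, n = 4) in fasted SM, with arrays from 0.256 to 0.368. The 15 core genes stood at 0.204 ± 0.0365 (SD, n = 4), with arrays from 0.151 to 0.233. On each of the 4 fasted SM arrays the regulatory mean exceeded the core mean, by 0.0744 to 0.146, whereas on the fed SM arrays this difference ranged from -0.051 to 0.0555. The fasted SM 5 array gave 0.117 for the regulatory and 0.0749 for the core genes, a difference of 0.0425, within the range of the fed SM arrays. A positive difference was not particular to SM. It ranged from 0.0138 to 0.0985 in fasted and from -0.025 to 0.0443 in fed LIV. In WAT it ranged from -0.0141 to 0.048 in fasted and from -0.0526 to 0.0361 in fed arrays. In fasted LIV the means were 0.169 ± 0.038 (regulatory) and 0.108 ± 0.0405 (core, SD, n = 5), and in fasted WAT -0.0818 ± 0.0752 (regulatory) and -0.106 ± 0.0588 (core, SD, n = 5). Fed LIV 4, left out, lay at -0.173 (regulatory) and -0.143 (core). These means and differences are given without a test.

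**Figure D3:**
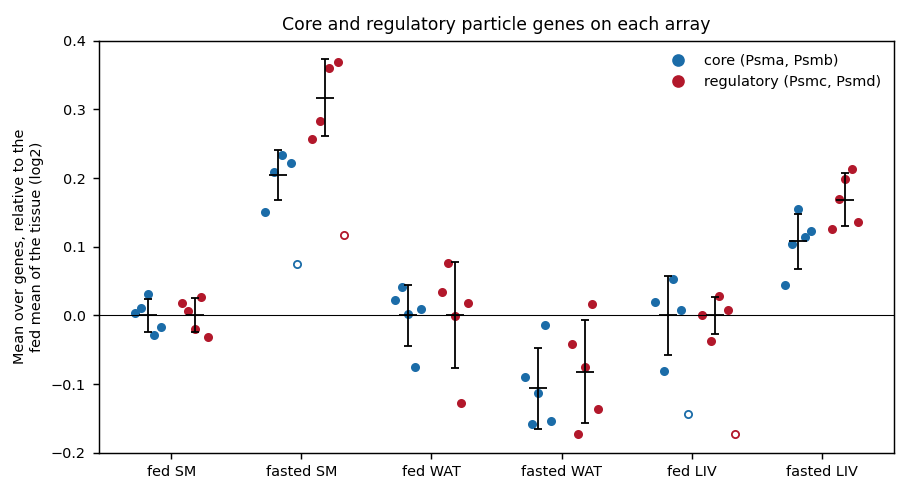
Mean over the 15 core genes (blue) and the 20 regulatory genes (red) on each array, relative to the fed mean of the tissue (log2, y axis), in the 6 groups (x axis), with mean and SD of the arrays used and open circles for the arrays left out. The 4 fasted SM arrays lie at 0.256 to 0.368 for the regulatory and 0.151 to 0.233 for the core genes.

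Known promoter elements were searched for in the proteasome genes, whether or not they were called. The 250 bases before the start of transcription were taken from RefSeq (build GRCm38.p6), which gave 30 promoters of 28 of the 35 genes. Psma8, Psmb1, Psmb2, Psmb7, Psmc3, Psmd3 and Psmd7 had no entry. Both strands were searched for 5 motifs: TGACNNNGC and TGAGNNNGC, the 2 forms of the antioxidant response element bound by the factors Nfe2l1 and Nfe2l2; the forkhead motif TGTTTAC of FoxO factors; CCAAT, bound by NF-Y; and CCGGAA, bound by ETS factors. TGACNNNGC was found in 5 of 28 genes and in 10.2% of all 32851 promoters, and TGAGNNNGC in 7 of 28 genes and 14.4% of promoters. TGTTTAC was in 0 of 28 genes and in 3.17% of promoters. CCAAT was in 12 of 28 genes and 33.8% of promoters, and CCGGAA in 13 of 28 genes and 12.0% of promoters. A gene was counted when any of its promoters matched, whereas the percentages are by promoter. A match is a string of letters in the 250-base window and not a binding site.

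The promoters of 5 genes are shown on the strand of the gene, with matches in capitals: Psmd11 (chr11:80428365-80428614, plus strand), Psmd12 (chr11:107479278-107479527, plus strand) and Psmc6 (chr14:45329574-45329823, plus strand) as genes that rose in SM, Psma1 (chr7:114276117-114276366, minus strand) as the gene that changed in opposite directions in SM and WAT, and Psmd9 (chr5:123227940-123228189, plus strand) as the gene with the largest change in LIV. The genes shown for SM do not stand for all that rose there. Psmc2, Psmd4 and Psma5 had larger changes in SM than Psmd12 and Psmc6 and are not shown. Psmc4 and Psmd8, also called up in SM, had a promoter without a match to any motif searched. The capitals mark CCGGAA (written TTCCGG where it lies on the other strand) in Psmd11, Psmd12 and Psmc6, TGACNNNGC and TGAGNNNGC in Psmd12 and Psmc6, CCAAT (or ATTGG) in Psma1, and TGACNNNGC in Psmd9.
Psmd11: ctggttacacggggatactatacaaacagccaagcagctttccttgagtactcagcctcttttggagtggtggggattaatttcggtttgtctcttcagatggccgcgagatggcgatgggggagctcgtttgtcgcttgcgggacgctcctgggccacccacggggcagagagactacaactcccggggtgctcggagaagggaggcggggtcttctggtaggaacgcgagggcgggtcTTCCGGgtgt
Psmd12: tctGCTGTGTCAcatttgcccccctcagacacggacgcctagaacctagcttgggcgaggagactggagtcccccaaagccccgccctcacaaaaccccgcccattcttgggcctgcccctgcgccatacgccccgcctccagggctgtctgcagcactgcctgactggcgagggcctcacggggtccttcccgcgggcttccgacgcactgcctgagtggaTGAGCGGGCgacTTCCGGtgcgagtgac
Psmc6: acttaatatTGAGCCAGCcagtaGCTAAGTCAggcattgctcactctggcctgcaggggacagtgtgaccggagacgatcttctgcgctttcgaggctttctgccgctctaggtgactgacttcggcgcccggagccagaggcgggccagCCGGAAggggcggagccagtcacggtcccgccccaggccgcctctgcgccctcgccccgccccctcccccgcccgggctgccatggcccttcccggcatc
Psma1: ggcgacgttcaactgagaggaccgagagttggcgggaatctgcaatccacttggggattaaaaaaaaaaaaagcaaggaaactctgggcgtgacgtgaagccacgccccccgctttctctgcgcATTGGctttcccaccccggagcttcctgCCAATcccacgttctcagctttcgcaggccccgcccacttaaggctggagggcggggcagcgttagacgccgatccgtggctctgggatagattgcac
Psmd9: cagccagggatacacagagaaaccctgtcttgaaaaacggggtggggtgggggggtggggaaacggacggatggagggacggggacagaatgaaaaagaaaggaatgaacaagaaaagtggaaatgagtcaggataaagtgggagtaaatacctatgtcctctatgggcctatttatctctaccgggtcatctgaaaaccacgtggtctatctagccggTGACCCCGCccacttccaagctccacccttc

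In WAT, the 5 called genes fell, and they belonged to both particles. Psmd14, the deubiquitinase of the lid, was at 9.45, 9.56, 9.51, 9.26 and 9.32 in fed and at 8.79, 8.86, 8.78, 8.90 and 9.20 in fasted WAT. Every fasted array lay below every fed array, and the level fell by 0.51 ± 0.07 (SE, 1.43-fold, adjusted p = 4.47e-06). Psmb3, a beta subunit that does not cut, went from 11.72, 11.61, 11.41, 11.70 and 11.58 to 11.09, 11.05, 11.19, 11.07 and 11.13, without overlap (fell by 0.50 ± 0.05, SE, adjusted p = 1.8e-08). Its second probe set fell by 0.32 (adjusted p = 0.000132), below the minimum fold.

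Psma1, which rose in SM, read 10.10, 10.15, 10.11, 9.89 and 10.05 in fed and 9.73, 9.53, 9.46, 9.76 and 9.58 in fasted WAT (fell by 0.45 ± 0.06, SE, 1.36-fold, adjusted p = 2.17e-06). It was the only one of the 35 genes called in opposite directions in 2 tissues. In LIV it was at 10.16, 10.06, 10.26 and 10.14 in fed and 10.03, 9.98, 10.05, 10.02 and 10.03 in fasted mice, so that the groups did not overlap, although the difference of -0.13 did not pass (adjusted p = 0.194).

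Psmd6, a lid subunit, and Psmd10, a base chaperone, were close to the minimum fold in WAT. Psmd6 read 8.34, 8.55, 8.41, 8.21 and 8.30 in fed and 7.94, 7.76, 8.03, 8.09 and 8.05 in fasted WAT (fell by 0.39 ± 0.07, SE, adjusted p = 6.96e-05). Psmd10 read 7.80, 7.85, 7.88, 7.72 and 7.68 against 7.32, 7.35, 7.40, 7.61 and 7.33 (fell by 0.38 ± 0.06, SE, adjusted p = 3.87e-05). Neither overlapped between diets. The count of 5 called genes was 3 without fed WAT 2 or without fed WAT 3 and 7 without fed WAT 4. The change of Psmd10 came to lie below the minimum fold without fed WAT 1, 2 or 3 or fasted WAT 1, 2 or 5 (-0.38 to -0.36), and that of Psmd6 without fed WAT 2 or 3 or fasted WAT 2 (-0.38 to -0.33). Just outside the minimum fold stood Psmb2 (-0.37, adjusted p = 0.000682), Psmd1 (-0.35, adjusted p = 1.06e-05) and Psmc4 (-0.32, adjusted p = 2.93e-06).

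The beta ring was the role in which most genes passed the adjusted p downward in WAT, 6 of 8 at any fold with a median of -0.25, whereas the 7 alpha genes had a median of 0.11 and only Psma1 passed downward. The 3 catalytic subunits were among the 6. Psmb5 was at 10.47, 10.45, 10.79, 10.44 and 10.43 in fed and 10.07, 10.17, 10.08, 10.37 and 10.46 in fasted WAT (-0.29, adjusted p = 0.00293), with overlap. Psmb6 read 9.39, 9.32, 8.92, 9.11 and 9.30 against 9.04, 8.81, 9.16, 8.86 and 8.85 (-0.26, adjusted p = 0.0243), also with overlap. Psmb7 read 9.27, 9.21, 9.14, 9.18 and 9.16 against 9.00, 8.98, 8.96, 8.93 and 9.02 (-0.21, adjusted p = 0.0021), without overlap. In the other direction, Psmd4, Psma7 (0.23, adjusted p = 0.0283) and Psmd11 passed upward below the minimum fold. Of the adipocyte markers 1 of 8 was called down in WAT, and of the macrophage markers 2 of 7 up; their part in the result was not tested.

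In LIV, Psmd9 and Psma7 were called. Psmd9, a base chaperone, was at 7.63, 7.49, 7.47 and 7.66 in fed and at 8.24, 8.31, 8.33, 8.65 and 8.06 in fasted LIV, a rise of 1.68-fold without overlap (0.75 ± 0.09, SE, adjusted p = 4.99e-07). The fed LIV array left out read 7.74, and the rise was 0.72 with all 30 arrays. In SM (0.15, adjusted p = 0.261) and WAT (0.21, adjusted p = 0.0563) the gene was not called. Psma7, an alpha subunit, was at 9.03, 8.81, 8.91 and 9.04 in fed and at 9.25, 9.49, 9.58, 9.53 and 9.47 in fasted LIV (1.43-fold, 0.52 ± 0.08, SE, adjusted p = 6.29e-05), again without overlap.

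Just outside the minimum fold in LIV stood Psmd6, at 9.01 ± 0.08 in fed (SD, n = 4) and 9.38 ± 0.08 in fasted mice (SD, n = 5; 0.37, adjusted p = 0.000686). With all 30 arrays, Psmd6 (0.47) and Psma6 (0.38) were called as well, so that 4 members were up. Of the ATPases, 4 of 6 passed the adjusted p upward without reaching the minimum fold. Psmd5, a base chaperone, was the only gene that passed downward (-0.27, adjusted p = 0.00217), and its change in WAT was -0.30 (adjusted p = 0.000172). The catalytic subunits did not pass in LIV. Psmb5 was at 10.95, 11.02, 11.05 and 10.99 in fed and 11.14, 11.15, 11.06, 10.97 and 11.06 in fasted LIV, a change of 0.07. Psmb6 read 9.74, 9.64, 9.72 and 9.81 against 9.80, 9.87, 10.04, 9.84 and 9.72 (0.12). Psmb7 read 9.80, 9.80, 9.96 and 9.75 against 9.80, 9.82, 9.87, 9.86 and 9.87 (0.02). The macrophage markers moved down in LIV, 3 of 7 called; their part in the result was not tested.

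The fasting changes differed between tissues for many of the genes when the difference itself was tested. The change in SM was above that in WAT for 14 members, where 7.7% of all genes were called in this direction. Of these 14, 10 were regulatory and 4 core genes. The largest differences were those of Psma1 (0.95, adjusted p = 1.33e-08), Psmd14 (0.77, adjusted p = 7.33e-06), Psmc4 (0.72, adjusted p = 7.18e-09) and Psmc2 (0.70, adjusted p = 6.8e-05). Psmb2, Psmd1 and Psmd5, which were called in neither SM nor WAT, were among the 14, with differences of 0.59, 0.52 and 0.44. Psmd4 and Psmd12 were called up in SM, but their differences from WAT were not called.

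Against LIV, the change in SM was higher for 6 members, where 7.98% of all genes were called, and lower for 1, Psmd9, where 7.29% were. Psmd11 led with 0.85 (adjusted p = 6.24e-08), followed by Psma1 with 0.64 and Psmc2 with 0.51, while Psmd9 stood at -0.60 (adjusted p = 0.000842). The change in WAT was below that in LIV for 11 members, where 7.9% of all genes were called, with Psmd6 at -0.76 (adjusted p = 3.22e-06), Psmd9 at -0.54 and Psmc4 at -0.51. Across the 35 genes, the changes in SM and WAT had a Pearson r of 0.35 and a Spearman rho of 0.33, those in WAT and LIV 0.44 and 0.36, and those in SM and LIV -0.07 and -0.01. These values describe genes on the same arrays, which are not independent.

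**Figure D4:**
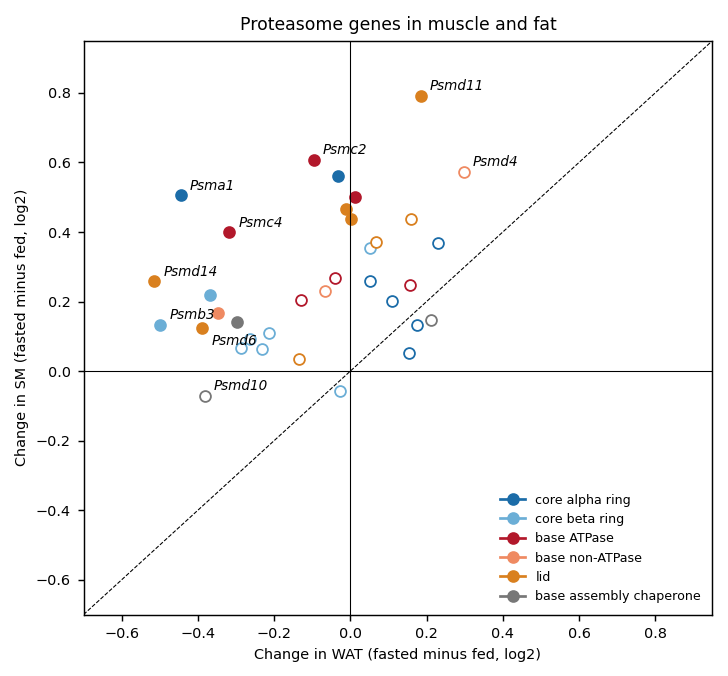
Change in SM (y axis) against change in WAT (x axis) of the 35 genes, both fasted minus fed on the log2 scale, coloured by role; filled points are genes whose difference between the tissues was called, and the dashed line marks equal change. All 14 filled points lie above the line, and Psma1, at 0.51 in SM and -0.45 in WAT, lies farthest from it.

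In the fed mice, studied in parallel at the same 24 h, the tissues also differed in these genes, and fed WAT was lowest for most. Fed SM was above fed WAT for 25 members, where 20.1% of all genes were called, and below it for 0. Fed WAT was below fed LIV for 24 members, where 18.7% of all genes were, and above it for 0. Between fed SM and fed LIV, 9 members were higher in SM and 3 lower, where 26.2% and 21.8% of all genes were called. Psmd6 differed most, at 10.18 ± 0.06 in fed SM (SD, n = 5), 9.01 ± 0.08 in fed LIV (SD, n = 4) and 8.36 ± 0.13 in fed WAT (SD, n = 5). Psmd12 was at 9.95 ± 0.07, 9.39 ± 0.09 and 8.50 ± 0.06 in the same order. The 3 genes lower in fed SM than in fed LIV were Psmd5 (-0.67), Psmd9 (-0.62) and Psma7 (-0.42). Psmd11 was at 9.90 ± 0.06 in fed SM, 10.12 ± 0.07 in fed LIV and 8.89 ± 0.11 in fed WAT, and fasting brought it above all LIV arrays in SM, at 10.60 to 10.76.

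The inducible subunits Psmb8, Psmb9 and Psmb10, which replace Psmb5, Psmb6 and Psmb7 in the immunoproteasome that makes peptides for antigen presentation, had negative changes in SM, where Psmb8 and Psmb9 fell. Psmb8 was at 5.61, 6.00, 5.83, 5.99 and 5.79 in fed and at 5.32, 5.24, 4.98 and 5.04 in fasted SM (fell by 0.70 ± 0.12, SE, adjusted p = 4.89e-05). Psmb9 was at 6.30, 6.52, 6.53, 6.30 and 6.30 in fed and at 5.76, 5.99, 5.93 and 5.39 in fasted SM (fell by 0.63 ± 0.12, SE, adjusted p = 0.000402). Neither overlapped between diets on the arrays used. On the fasted SM 5 array, which held the lymphocyte transcripts, they read 7.09 and 7.34, above all other SM arrays. With all 30 arrays neither passed in SM, as Psmb8 changed by -0.31 (adjusted p = 0.424) and Psmb9 by -0.31 (adjusted p = 0.336). Psmb10 changed by -0.30 in SM and did not pass (adjusted p = 0.0637).

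In WAT, Psmb9 was called down (-0.48, adjusted p = 0.00263; 0.10 with all 30 arrays), and in LIV Psmb10 (-0.86, adjusted p = 4.56e-06), from 7.87, 8.55, 8.44 and 8.46 to 7.41, 7.52, 7.48, 7.40 and 7.57. All 3 inducible genes had negative changes in all 3 tissues, 4 of 9 of them called, where 5.78% (SM), 7.75% (WAT) and 4.01% (LIV) of all genes were called down. In LIV this went with the macrophage markers, 3 of 7 of which were called down; their part in the result was not tested. Psme1, a subunit of the core activator induced by interferon, was called down in SM (-0.39, adjusted p = 0.0024), below the minimum fold with all 30 arrays (-0.35, adjusted p = 0.0115), and Psme2 missed the minimum fold there (-0.34, adjusted p = 0.000154). The list of core activators and the inhibitor Psmf1 held 5 genes, none of them called in WAT or LIV, where the largest changes were those of Psme2 in WAT (-0.35, adjusted p = 5.12e-05, below the minimum fold) and Psme1 in LIV (-0.18).

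**Figure D5:**
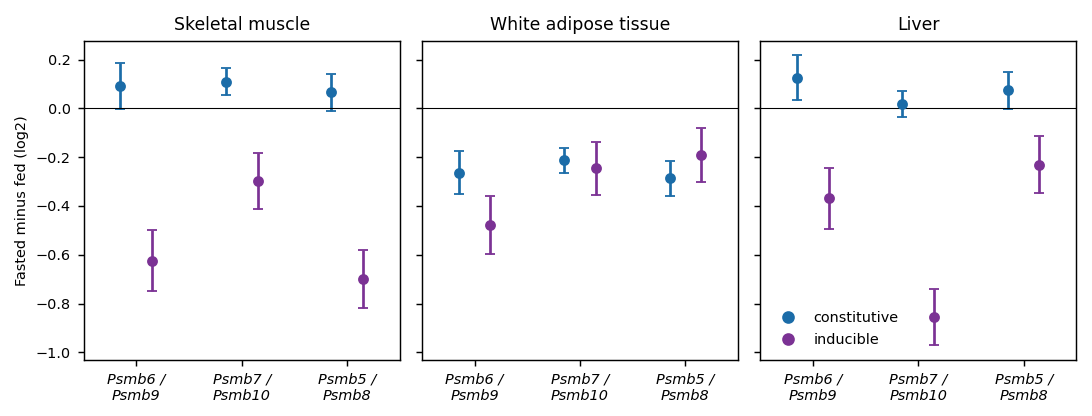
Change (fasted minus fed, log2, y axis) with SE of the constitutive catalytic subunits Psmb6, Psmb7 and Psmb5 (blue) and of the inducible subunits Psmb9, Psmb10 and Psmb8 that replace them (purple), in SM, WAT and LIV. In SM the constitutive subunits lie at 0.07 to 0.11 and the inducible ones at -0.70 to -0.30.

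Around the proteasome, most of the listed genes that bring substrates to it were called up in SM. Of all genes, 7.8% were called up in SM, 7.99% in WAT and 3.54% in LIV. The lists were chosen with earlier results of these data known. Of 7 shuttle factors and segregase genes, 5 were called up in SM (4 with all 30 arrays, where Ubqln2 was at 0.32), with a median of 0.40, led by Nploc4, a cofactor of the segregase Vcp (0.60, adjusted p = 8.06e-10), Ubqln1 (0.49) and Rad23b (0.42), shuttles that carry ubiquitinated proteins. In WAT only Ubqln2 of this list was called (0.38, adjusted p = 0.000211) and in LIV none, with Ufd1 at 0.31. Of 8 ubiquitin ligases known from muscle atrophy, 5 were called up in SM, namely Trim63 (1.90), Fbxo32 (1.23), Fbxo30 (0.99), Fbxo31 (0.67) and Fbxo21 (0.59). Trim63 went from 10.70, 10.91, 10.39, 10.82 and 10.57 to 12.48, 12.72, 12.60 and 12.51 in SM (adjusted p = 7.93e-13). In WAT, Fbxo31 (1.89), Fbxo21 (1.26) and Fbxo32 (0.78) were called up, and in LIV Fbxo31 (1.3).

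Of 9 transcription factors known for proteasome genes, 3 were called up in SM, where 7.8% of all genes were: Foxo1 (1.28, adjusted p = 1.75e-14), Foxo3 (1.19, adjusted p = 7.16e-13) and Nfe2l2 (0.79, adjusted p = 1.54e-09). Nfe2l1, the factor known to raise proteasome genes when the proteasome is inhibited, changed by 0.18 in SM and did not pass (adjusted p = 0.0684). Below the minimum fold, Nfyb (-0.33, adjusted p = 0.00317) and Nfyc (-0.24, adjusted p = 0.00511) passed downward in SM and Nfya upward (0.27, adjusted p = 0.0315). Foxo4 (0.02, adjusted p = 0.922) and Stat3 (0.16, adjusted p = 0.178) did not pass there. In WAT 5 were called up, where 7.99% of all genes were, led by Foxo3 (0.78), Stat3 (0.57) and Nfyb (0.50). In LIV, Foxo1 (0.55) and Nfya (0.43) were called up and Nfyb (-0.40) down; with all 30 arrays Nfyb missed the minimum fold (-0.35).

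Of 5 chaperones that assemble the core, none was called by the same limma fit in any tissue, with changes between -0.36 and 0.18, and the largest in each tissue were those of Psmg1 in SM (-0.17) and LIV (0.17) and of Pomp in WAT (-0.36, adjusted p = 4.99e-05), the latter below the minimum fold only. Of 3 other proteins of the regulatory particle, Txnl1, a thioredoxin bound to the proteasome, was called up in SM (0.60, adjusted p = 1.88e-07), and none in WAT, where Uchl5 changed by 0.31, or LIV, where Sem1 changed by 0.19. Of the ubiquitin genes and activating enzymes only Uba6 had a probe set of its own, with changes of -0.29 in SM (adjusted p = 0.0197), -0.05 in WAT and 0.07 in LIV.

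The 35 genes had 42 probe sets that name only them, because 6 genes had several. For Psma3, the 3 probe sets lay close together, with SM changes of 0.19 to 0.20, WAT changes of 0.10 to 0.17 and LIV changes of -0.02 to 0.01, none called. Psmb1 had a second, dimmer probe set that gave 0.27 in SM (adjusted p = 0.0729) where the one used gave 0.35. For Psmc1 the second probe set was called up in LIV (0.38, adjusted p = 0.00471), where the one used gave 0.30 (adjusted p = 0.0111). Psmd2 changed in WAT by -0.07 (adjusted p = 0.38) and by -0.18 (adjusted p = 0.00528) on its 2 probe sets. No pair of probe sets of 1 gene was called in opposite directions in a tissue.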

How the data were processed

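Gene expression was measured in WAT, LIV and SM of fed and fasted mice on 30 arrays. The log2 values were deposited by the authors, who made them from the scanned intensities in Partek by RMA (background-corrected, quantile-normalized and then summarised per probe set by median polish). They cover 28815 probe sets, of which 21153 name 1 gene on the platform annotation, 1867 several, and 5795 are not listed, and 0 columns lacked a sample. No 2 arrays were identical. Of the 35 genes, 33 passed a filter on dim probe sets; Psma8 and Psmb11 did not.

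With limma 3.58.1 in R 4.3.3, a linear model of the 6 group means was run over every probe set on 28 arrays, and its variances were shrunk by empirical Bayes (4.24 prior degrees of freedom). The study's methods name a two-way model of diet and tissue with the same group means, a false discovery rate of 5% and 1.3-fold. The code of the fit was run on simulated data with independent noise. The outcome is not given here, and no result rests on it. Figures were drawn with matplotlib 3.10.9 in Python 3.11.15, and promoters came from RefSeq. Precision is limited by 4 or 5 arrays per group. Each probe set had 1 estimate of the spread, shared by all 6 groups. The p-values of a tissue therefore also rest on the spread between mice in the other tissues.

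The genes, the lists around them, the thresholds and the arrays left out were chosen with earlier results of these data known. Array values are given for up to 12 called genes in SM, up to 6 called genes each in WAT and LIV, genes called in opposite directions, and Psmb5, Psmb6 and Psmb7. Of each further list, up to 3 called genes with the largest change, or the single largest where none was called, were named in each tissue. Further members named beside them were chosen after their values were seen (Ufd1, Psme2, Nfe2l1, Uba6, the remaining transcription factors in SM and the remaining ligases). Alternatives were other sets of arrays, array weights, no moderation, each tissue alone, blocks for the replicate number or the mouse, loess or median centring, no dim probe sets, averaged probe sets, other thresholds, marker covariates in SM and leaving out 1 array at a time.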

Additional observations from a re-analysis of the deposited data

Results flagged for a closer look

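The array values of 19 genes and the means of the core and regulatory genes in the 6 groups gave 126 sets of 4 or 5 values, of which 3 held a value far from the rest, while chance alone gives about 1 in 20. They were Psmb5 on fed WAT 3 (10.79, the other fed WAT arrays 10.43 to 10.47), Psmd10 on fasted WAT 4 (7.61, the others 7.32 to 7.40) and Psmd4 on fasted SM 3 (9.81, the others 9.76).

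The fasting change of the 19 named genes differed between 2 tissues in 24 cases by limma's test of the difference. Of all genes, 7.7% were called for SM above WAT, 7.98% for SM above LIV, 7.29% for SM below LIV and 7.9% for WAT below LIV. All named genes but Psmb5, Psmb6 and Psmb7 were picked because they were called within a tissue in the same fit. That choice favours differences between tissues, so the 24 cases are not a separate result. SM minus WAT was 0.95 for Psma1, 0.77 for Psmd14, 0.72 for Psmc4, 0.70 for Psmc2, 0.63 for Psmb3, 0.61 for Psmd11, 0.59 for Psma5, 0.51 for Psmd6, 0.49 for Psmc6, 0.48 for Psmd8 and 0.44 for Psmd3. SM minus LIV was 0.85 for Psmd11, 0.64 for Psma1, 0.51 for Psmc2, 0.45 for Psmc6, 0.38 for Psmd3 and -0.60 for Psmd9. WAT minus LIV was -0.76 for Psmd6, -0.54 for Psmd9, -0.51 for Psmc4, -0.48 for Psmd10, -0.47 for Psmd14, -0.46 for Psmb3 and -0.39 for Psmb6.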

How the results depend on the processing

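No called result changed direction under the alternatives run. The values followed through the alternatives were the counts, the medians, the called genes and Psmb5, Psmb6 and Psmb7. Among these, uncalled values crossed 0 in 3 cases: the core median in WAT (0.000845 without fasted WAT 5), Psmb6 in SM (-0.0125 with fasted SM 1 left out in place of fasted SM 5) and Psmb7 in LIV (-0.0083 without fed LIV 5). Other uncalled members also changed sign with all 30 arrays. They were Psma8 (-0.00931) and Psmd13 (-0.00771) in SM, and Psma3 (0.124), Psmb3 (0.0219), Psmd11 (0.00315) and Psmd14 (0.118) in LIV. Without a minimum fold, the members called were 20 up in SM, 3 up and 13 down in WAT, and 10 up and 1 down in LIV, and 23 changed more in SM than in WAT; with a minimum of 1.5-fold they were 2 up in SM, 0 down in WAT and 1 up in LIV, and the differences called were 8 (SM above WAT), 2 (SM above LIV) and 1 (WAT below LIV), with 11 members lower in fed WAT than in fed LIV. The share of all genes was not counted at 1.5-fold, nor for differences between tissues without a minimum fold. Those counts therefore have no background beside them. With all 30 arrays, 4 members were up in LIV, with a median of 0.206 for the regulatory genes there. The core median in SM, 0.134, was 0.167 with loess, 0.185 with median centring, 0.202 without dim probe sets and 0.186 with averaged probe sets, and the regulatory median, 0.264, was 0.315 with median centring. The core median in WAT, -0.0317, was -0.213 without dim probe sets, which left out Psma8 and Psmb11.

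Leaving out 1 array at a time gave 10 to 12 members up in SM, 0 to 1 up in WAT (1 without fasted WAT 5) and 3 to 7 down in WAT. The core median ranged from 0.131 to 0.18 in SM and from -0.101 to 0.000845 in WAT, and the regulatory median in SM from 0.23 to 0.314. Of the single-gene values, 628 kept their side of the threshold, 27 lost the call and 3 gained it. Psmd10 in WAT lost it in 7 settings, Psmc4 in SM and Psmd6 in WAT in 4 each, and Psmd3 in SM (0.37) with fasted SM 1 left out in place of fasted SM 5.

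Equal replicate numbers did not pair fed and fasted arrays: the correlation of their deviations ranged from -0.252 to 0.163 over 13 pairs. For equal number and diet in different tissues, which may be the same mouse, it ranged from -0.122 to 0.177 over 26 pairs, with a median of 0.0311. With the replicate number as a block, 11 members were up in SM. The arrays per group and the dim signal of Psma8 and Psmb11 limit what could be called.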
